A study of Mus musculus with 6 samples.

Results

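The transcripts described here come from 8 genes of bone morphogenetic protein (BMP) signalling, the ligand gene Bmp4, the receptor genes Bmpr1a and Bmpr2, the inhibitory SMAD gene Smad6, and the target genes Id1, Id2, Id3 and Id4. They were chosen by name, with earlier results of these data known. Each had 1 row among the 31055 features of a single-cell RNA-seq count matrix of neoplastic cells sorted from mouse lung tumours. The study asked how the tumour suppressor LKB1, encoded by Stk11, governs the state of lung adenocarcinoma cells, by trapping the gene with Cre and later restoring it with FLPo-ERT2 and tamoxifen. All 6 mice carried KrasLSL-G12D, Lkb1XTR/XTR and Rosa26LSL-tdTomato, had tumours induced by Lenti-Cre and grown for 20 weeks, and were treated for 2 weeks. The 3 Restored mice also carried Rosa26 FLPo-ERT2 and received tamoxifen in doses of 4 mg. Of the 3 NonRestored mice, 1 without FLPo-ERT2 received tamoxifen, 1 without FLPo-ERT2 received vehicle, and 1 with FLPo-ERT2 received vehicle. The trap cassette carries GFP, so a trapped allele is read as GFP and an untrapped or restored allele as Stk11. Tamoxifen acts in every cell with the Rosa26 FLPo-ERT2 allele, and the sort kept tdTomato-positive cells and removed dead cells and those with CD45, CD31, F4/80 or Ter119.

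The matrix pools all libraries, and cells were not assigned to mice here, so it was treated as 1 sample. Every value below is therefore without replicates, no p-value is given, and intervals cover counting error only. Differences between mice, and between restored and non-restored tumours, cannot be told apart from the comparisons of cells that follow. Of 16017 barcodes holding 266713311 unique molecular identifiers (UMIs), 12183 had at least 500 genes and at most 20% mitochondrial UMIs. Cells were gated on UMIs per 10000. The ATII gate (Sftpc at least 500, Hopx under 2, Krt8 plus Krt18 under 50) held 6975 cells with a median of 21660 UMIs, the ATI gate (Hopx at least 15, Krt8 plus Krt18 under 50) 956 cells with a median of 11796.5, and the keratin-high gate (Krt8 plus Krt18 at least 50) 1183 cells with a median of 23490. The other 3069 cells fell in no gate.

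The gates were checked first on markers that the gating did not use. Lyz2, an ATII marker, was at 13587 UMIs per 1000000 (CPM) in the ATII gate, 805 in the ATI gate and 510 in the keratin-high gate. Ager, an ATI marker, was at 841, 5902 and 1678 CPM in the same order, and Krt19 and Cldn4, markers of a transitional state, were highest in the keratin-high gate, at 1922 and 428 CPM. ATII transcripts were still abundant in the ATI gate, where the gating gene Sftpc stood at 47497 CPM and 10 ATII markers, with Sftpc, summed to 58520 CPM. The 10 ATI markers summed to 13458 CPM there, of which the gating gene Hopx gave 3497 CPM. In cells marked as other types the ATII sum lay between 3127 CPM (smooth muscle or pericyte) and 37787 CPM (myeloid). The carried-over part of the ATII sum was not tested. Defining markers of sorted-out types were near 0, with Pecam1 between 0.674 and 1.01 CPM and Ptprc between 0.0749 and 0.155 CPM. Col1a1 stood between 2.10 and 3.95 CPM. In the keratin-high gate the 5 mesothelial markers summed to 125 CPM through Msln alone, and the 5 ciliated markers to 290 CPM, of which Tppp3 gave 286 CPM. Among all filtered cells 492 carried markers of another cell type, but only 12, 2 and 1 of them lay in the ATII, ATI and keratin-high gates.

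BMP ligands such as BMP4 bind pairs of type I and type II serine/threonine kinase receptors, which phosphorylate SMAD1, SMAD5 and SMAD9. These enter the nucleus with SMAD4 and bind the promoters of direct target genes, of which the Id genes are the best known. ID proteins are helix-loop-helix proteins without a DNA-binding part that hold E proteins in inactive dimers, while SMAD6 is itself induced by BMP and blocks the receptors and SMAD1. In the lung, BMP4 is known for its part in distal airway development and alveolar cell differentiation.

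The promoter letters that BMP-driven SMADs are known to bind are shown for the members that differed most between gates. RefSeq promoter windows (GRCm38.p6) were matched for 7 of the 8 genes, all but Id1, which was not searched, and the 250 bases before each start were searched on both strands for GGCGCC, the GC-rich BMP element, GTCTAGAC, the SMAD box palindrome, and CAGAC, its shorter form. GGCGCC occurred once each in the windows of Id2, Id4, Bmpr1a and Bmpr2, and in 9.59% of 32851 mouse windows of that length. CAGAC, read on either strand, occurred in the Id3 window only among the 7 genes, at 2 places, and in 42.2% of all windows. GTCTAGAC was in none of the 7 windows and in 0.167% of all windows. The matches in Id2 and Id3 are given with 10 bases on either side, 5′ to 3′ on the strand of the gene, the motif in capitals, GTCTG being CAGAC on the other strand.
Id2, chr12:25096308-25096333, minus strand: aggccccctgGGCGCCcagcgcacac
Id3, chr4:136143645-136143669, plus strand: tcctcggcgtCAGACcagcctaagg
Id3, chr4:136143744-136143768, plus strand: acccttggcgGTCTGttttgaataa
The Id3 window lay wholly, and 161 bases of the Id2 window lay, within exons of longer transcripts of the same genes in GENCODE M21. For Bmp4 the whole window is shown (chr14:46390670-46390919, minus strand), in which none of the 3 motifs occurred.
Bmp4: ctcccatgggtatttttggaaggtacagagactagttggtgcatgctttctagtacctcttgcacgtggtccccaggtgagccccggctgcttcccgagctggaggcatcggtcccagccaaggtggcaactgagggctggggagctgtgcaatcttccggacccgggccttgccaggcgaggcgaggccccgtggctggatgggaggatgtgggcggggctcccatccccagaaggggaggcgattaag
A match is a description of letters and was not tested as a binding site.

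Comparison of the gates addressed how the BMP genes differ between cells of ATII, ATI and keratin-high state. Id3 and Bmp4 were higher, and Id2 lower, in the ATI gate than in the ATII gate by more than 2-fold, and the keratin-high gate lay between for Id3 and Bmp4. At least 2-fold, with at least 5 CPM in either gate, was used to call a difference. Of the 8 genes 7 passed the 5 CPM limit and 3 of them were called between the ATI and ATII gates, beside 17.8% of 9789 genes called overall (11.8% higher, 6.06% lower). The median gene was itself 1.29-fold higher in the ATI gate (0.37 on the log2 scale), Sftpc alone taking 155328 CPM of the ATII gate, so folds relative to the median gene are also given.

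**Figure D1:**
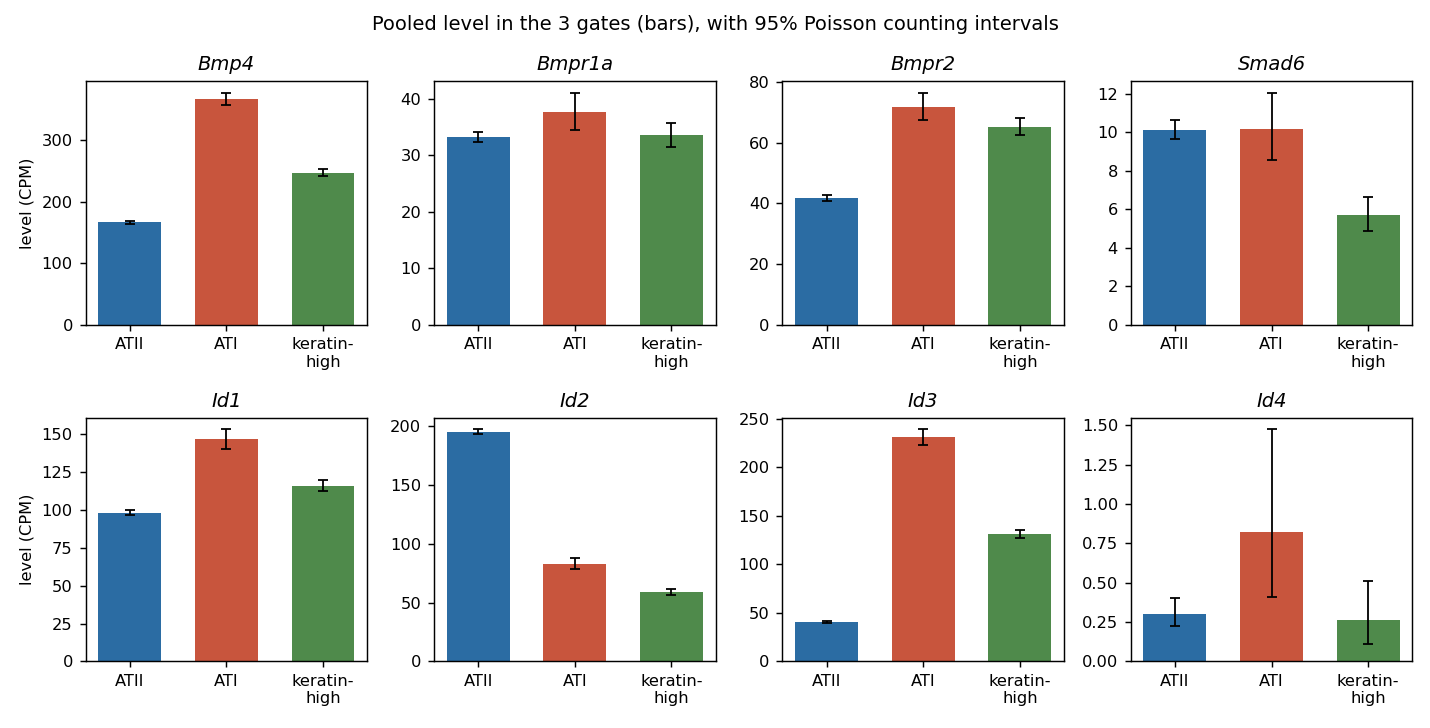
Pooled level of each gene in CPM (bars from 0, a separate axis for each gene) in the ATII, ATI and keratin-high gates, with exact 95% Poisson intervals. Id3 stood at 41.0, 231 and 131 CPM, while Id2 ran the other way, at 195, 83.3 and 59.1 CPM.

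Bmp4 (ENSMUSG00000021835, chr14:46383520-46390669, minus strand), the ligand gene of the group, was measured at 166 CPM in the ATII gate (95% Poisson interval 164 to 168). It was at 367 CPM (357 to 378) in the ATI gate and at 247 CPM (242 to 253) in the keratin-high gate. No 2 of these intervals overlapped. The level in the ATI gate was 2.21-fold that in the ATII gate (2.14 to 2.27), or 1.71-fold relative to the median gene, which is under the 2-fold limit. Keratin-high cells stood 1.49-fold above ATII-gated cells (1.45 to 1.52; 1.15-fold relative to the median gene) and 1.48-fold below ATI-gated cells (1.43 to 1.54). After each cell was thinned to 5000 UMIs, a Bmp4 UMI was found in 52.0% of ATII-gated cells, 72.9% of ATI-gated cells and 63.7% of keratin-high cells (unthinned 86.4%, 83.5% and 89.3%). The thinned shares kept the order of the levels.

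The receptor genes differed less. Bmpr1a (ENSMUSG00000021796, chr14:34410734-34503341, minus strand), a type I receptor gene, was at 33.2 CPM (32.3 to 34.1) in the ATII gate, 37.6 CPM (34.4 to 41.1) in the ATI gate and 33.5 CPM (31.5 to 35.6) in the keratin-high gate. Its ATI to ATII ratio of 1.13 (1.03 to 1.24) turned to 0.879 relative to the median gene and fell below 1 also when UMI totals left out the 29 gate and state markers, so that its direction depended on the scaling. Bmpr2 (ENSMUSG00000067336, chr1:59763400-59879014, plus strand), the type II receptor gene, was at 41.9 CPM (40.9 to 42.9), 71.8 CPM (67.3 to 76.5) and 65.3 CPM (62.5 to 68.2). It stood 1.71-fold higher in the ATI gate (1.60 to 1.83; 1.33-fold relative to the median gene) and 1.56-fold higher in the keratin-high gate (1.48 to 1.64; 1.20-fold relative) than in the ATII gate. The ATI and keratin-high gates were close for Bmpr2, with overlapping intervals and thinned shares of 29.6% and 28.9% of cells against 19.8% in the ATII gate. The share in thinned myeloid-marked cells was 16 of 65 (24.6%, 14.8% to 36.9%). That interval holds the share of every gate, so these shares on their own do not show expression. Gm38125 overlaps Bmpr2 on the same strand, and genes on the opposite strand overlap Bmpr1a, Bmp4 and Id4, so that counts of these 4 genes are uncertain where reads could be shared.

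Smad6 (ENSMUSG00000036867, chr9:63953076-64022059, minus strand), the intracellular inhibitor, was the scarcest of the genes that passed the limit. It was at 10.1 CPM (9.64 to 10.6) in the ATII gate and 10.2 CPM (8.55 to 12.1) in the ATI gate, and at 5.71 CPM (4.89 to 6.62) in the keratin-high gate. The ATII and ATI gates could not be separated for Smad6, with a ratio of 1.01 (0.838 to 1.20). The keratin-high level was 1.77-fold lower than that of the ATII gate (1.52 to 2.09) and 1.79-fold lower than that of the ATI gate (1.42 to 2.25). Relative to the median gene the first of these became 0.434, past the 2-fold limit. With a keratin limit of 100 the log2 ratios were -1.67 over the ATII gate and -1.68 over the ATI gate, beside -0.83 and -0.84.

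Id1 (ENSMUSG00000042745, chr2:152736251-152737410, plus strand) was at 98.3 CPM (96.7 to 99.8) in the ATII gate, 147 CPM (140 to 153) in the ATI gate and 116 CPM (112 to 120) in the keratin-high gate. The ATI gate stood 1.49-fold above the ATII gate (1.42 to 1.57), or 1.16-fold relative to the median gene. Between the keratin-high and ATII gates the ratio was 1.18 (1.14 to 1.23), with a direction that turned under both scalings, to 0.912 relative to the median gene. After thinning, Id1 was found in 29.2%, 35.2% and 29.9% of cells (60.3%, 48.7% and 55.7% unthinned). It was also found in 21 of 65 thinned myeloid-marked cells (32.3%, 21.2% to 45.1%). That interval holds the share of every gate, so these shares on their own do not show expression.

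Id2 (ENSMUSG00000020644, chr12:25093799-25097140, minus strand) had the opposite order, at 195 CPM (193 to 197) in the ATII gate, 83.3 CPM (78.4 to 88.3) in the ATI gate and 59.1 CPM (56.4 to 61.9) in the keratin-high gate. In CPM it was the only member with its highest level in the ATII gate, and the other 7 were highest in the ATI gate. Smad6 was highest there by less than its interval, and neither Smad6 nor Bmpr1a was highest there under either scaling. The ATI level of Id2 was 2.34-fold lower than the ATII level (2.21 to 2.49), and relative to the median gene the ratio was 0.331. The keratin-high level was 3.30-fold lower than the ATII level (3.15 to 3.46) and 1.41-fold lower than the ATI level (1.31 to 1.52). An Id2 UMI was found in 51.8% of thinned ATII-gated cells, 24.3% of ATI-gated cells and 19.9% of keratin-high cells (81.8%, 38.1% and 45.4% unthinned). In thinned myeloid-marked cells it was found in 28 of 65 (43.1%, 30.8% to 56.0%). The shares of the gates did not stand above that interval and on their own do not show expression.

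Id3 (ENSMUSG00000007872, chr4:136143497-136145755, plus strand) differed most of the members. It was at 41.0 CPM on 6627 UMIs in the ATII gate, 231 CPM (223 to 239) in the ATI gate and 131 CPM (127 to 135) in the keratin-high gate, so that all 3 gates were separated beyond counting error. The ATI level was 5.63-fold the ATII level (5.39 to 5.87; 4.36-fold relative to the median gene), and the keratin-high level was 3.20-fold the ATII level (3.08 to 3.33; 2.47-fold relative). Both folds are ratios of counted UMIs, over an ATII level that was under the 55.1 CPM of myeloid-marked cells. Id3 in keratin-high cells was 1.76-fold lower than in ATI-gated cells (1.68 to 1.84). After thinning, 11.5% of ATII-gated cells (10.7% to 12.2%) had an Id3 UMI, against 42.9% of ATI-gated cells (39.6% to 46.4%) and 32.3% of keratin-high cells (29.5% to 35.2%), while the unthinned shares were 26.0%, 57.3% and 54.3%. An Id3 UMI was also found in 10 of 65 thinned myeloid-marked cells (15.4%, 7.63% to 26.5%), with Id3 at 55.1 CPM and a median depth of 24668 UMIs. The ATII share thus did not stand above that of another cell type and on its own does not show expression. What part of either share came from RNA of other cells was not tested. In the ATII gate the 1% of cells with the most Id3 held 27.0% of its UMIs, compared with 11.5% in the ATI gate. Without the cells marked as another type the log2 ratio of ATI over ATII was 2.54, beside 2.49 with them.

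Id4 (ENSMUSG00000021379, chr13:48261228-48266026, plus strand) was nearly undetected, with 49, 11 and 8 UMIs in the ATII, ATI and keratin-high gates. These gave 0.303 CPM (0.224 to 0.401), 0.824 CPM (0.411 to 1.47) and 0.261 CPM (0.113 to 0.514), and Id4 stayed under the 5 CPM limit in every gate.

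**Figure D2:**
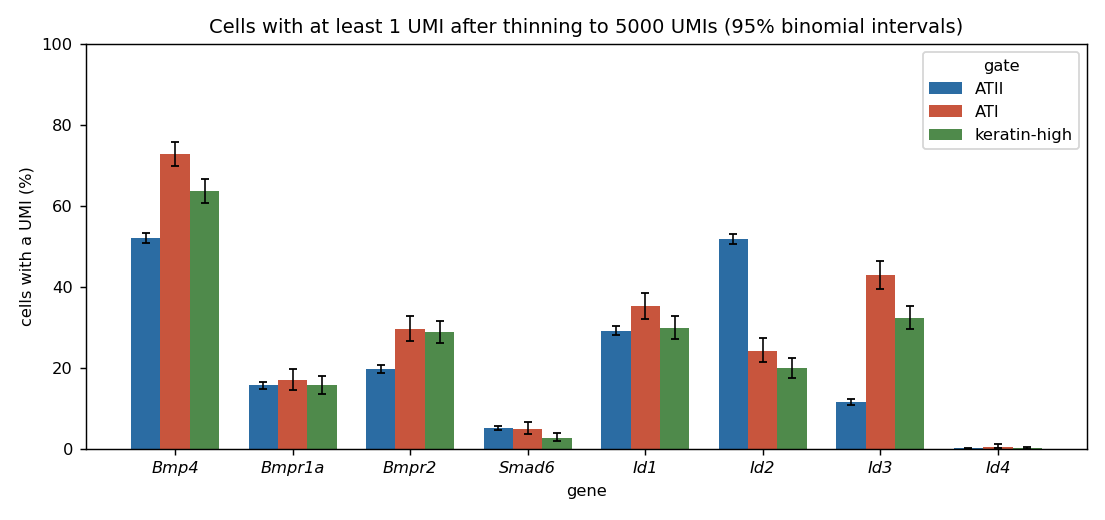
Share of cells (%, axis 0 to 100) with at least 1 UMI of each gene after every cell was thinned to 5000 UMIs, in the ATII (6772 cells), ATI (841) and keratin-high (1090) gates, with exact 95% binomial intervals. Id3 stood at 11.5% in the ATII gate and 42.9% in the ATI gate, and Id2 at 51.8% and 24.3%.

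Against the ATII gate, 2 of the 7 members that passed the limit were called in the keratin-high gate, Id3 higher and Id2 lower, beside 20.2% of 9892 genes (14.7% higher, 5.51% lower). The median gene was 1.30-fold higher there. Between the keratin-high and ATI gates none of the 7 members was called, beside 11.6% of 9910 genes (6.99% higher, 4.60% lower). All 8 levels were lower in the keratin-high gate, that of Bmpr2 by 0.14 on the log2 scale, which became 0.01 higher between thinned cells. The ATI-gated cells were the shallowest of the gates, and the ratios of levels between thinned cells are therefore also given for the called genes. They were 2.78 on the log2 scale for Id3, 1.14 for Bmp4 and -1.33 for Id2 in the ATI gate over the ATII gate.

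The cells marked as other types, some of them marked as more than 1 type, showed where Id and receptor transcripts were high outside the gates. Id3 was at 1466 CPM in 246 fibroblast-marked cells, 1591 CPM in 121 cells marked as smooth muscle or pericyte, and 778 CPM in 133 endothelial-marked cells. Those levels were above that of the ATI gate. The cells marked as smooth muscle or pericyte also had summed fibroblast markers at 51581 CPM, beside 4315 CPM of their own list. They are thus not separated from the fibroblast-marked cells. Id1 was at 626 CPM in endothelial-marked cells and 458 CPM in 49 ciliated-marked cells, and Id4 at 132 CPM in the ciliated-marked cells. Bmpr2 reached 215 CPM and Smad6 41.7 CPM in endothelial-marked cells. Bmp4 was at 191 CPM in fibroblast-marked cells and 42.7 CPM in endothelial-marked cells, but 5 UMIs (3.10 CPM) were counted in 67 myeloid-marked cells, of which 7.46% had one before thinning. After thinning a Bmp4 UMI was found in 0 of 65 myeloid-marked cells, where 3 counts would be a share of 4.62%, in 14.1% of thinned endothelial-marked cells, in 11 of 44 thinned ciliated-marked cells, and in 57.6% of fibroblast-marked cells, beside the 52.0% in the ATII gate. The summed fibroblast markers were 31.6 CPM in the ATII gate, 10.0 in the ATI gate and 10.7 in the keratin-high gate, against 49975 CPM in fibroblast-marked cells. The summed smooth muscle and pericyte markers were 2.26, 2.25 and 18.4 CPM in these gates, and the part of either list in the levels of Id3 was not tested.

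Within gates the genes varied with the gating transcripts. Cells of each gate were ordered by their level of the gating gene and split into 10 bins. From the lowest to the highest Sftpc bin of the ATII gate, Id1 went from 127 CPM (120 to 134) to 58.1 CPM (54.6 to 61.9), and Id2 from 134 CPM (127 to 141) to 209 CPM (203 to 216). Id3 went from 70.5 CPM to 27.2 CPM and Bmp4 from 224 CPM to 130 CPM. Sftpc takes part of every total, and with totals that left out the 29 markers the same end bins gave 142 and 82.9 CPM for Id1 and 252 and 185 CPM for Bmp4. The share of cells with a GFP UMI went along these bins from 31.8% to 6.60%, that with a Stk11 UMI from 13.8% to 49.5% and the median depth from 10095.5 to 23286 UMIs, and the part of these in the course of the Id genes was not tested. In the ATI gate Id3 went from 156 CPM (138 to 175) in the lowest Hopx bin to 354 CPM (317 to 395) in the highest, with Id2 at 101 CPM and 51.2 CPM. Bmp4 was at 406 CPM (377 to 437) and 384 CPM (345 to 426) in these end bins, and lowest in the eighth bin, at 317 CPM (283 to 353). In the keratin-high gate Id2 was 99.6 CPM in the lowest bin and 41.8 CPM in the highest.

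**Figure D3:**
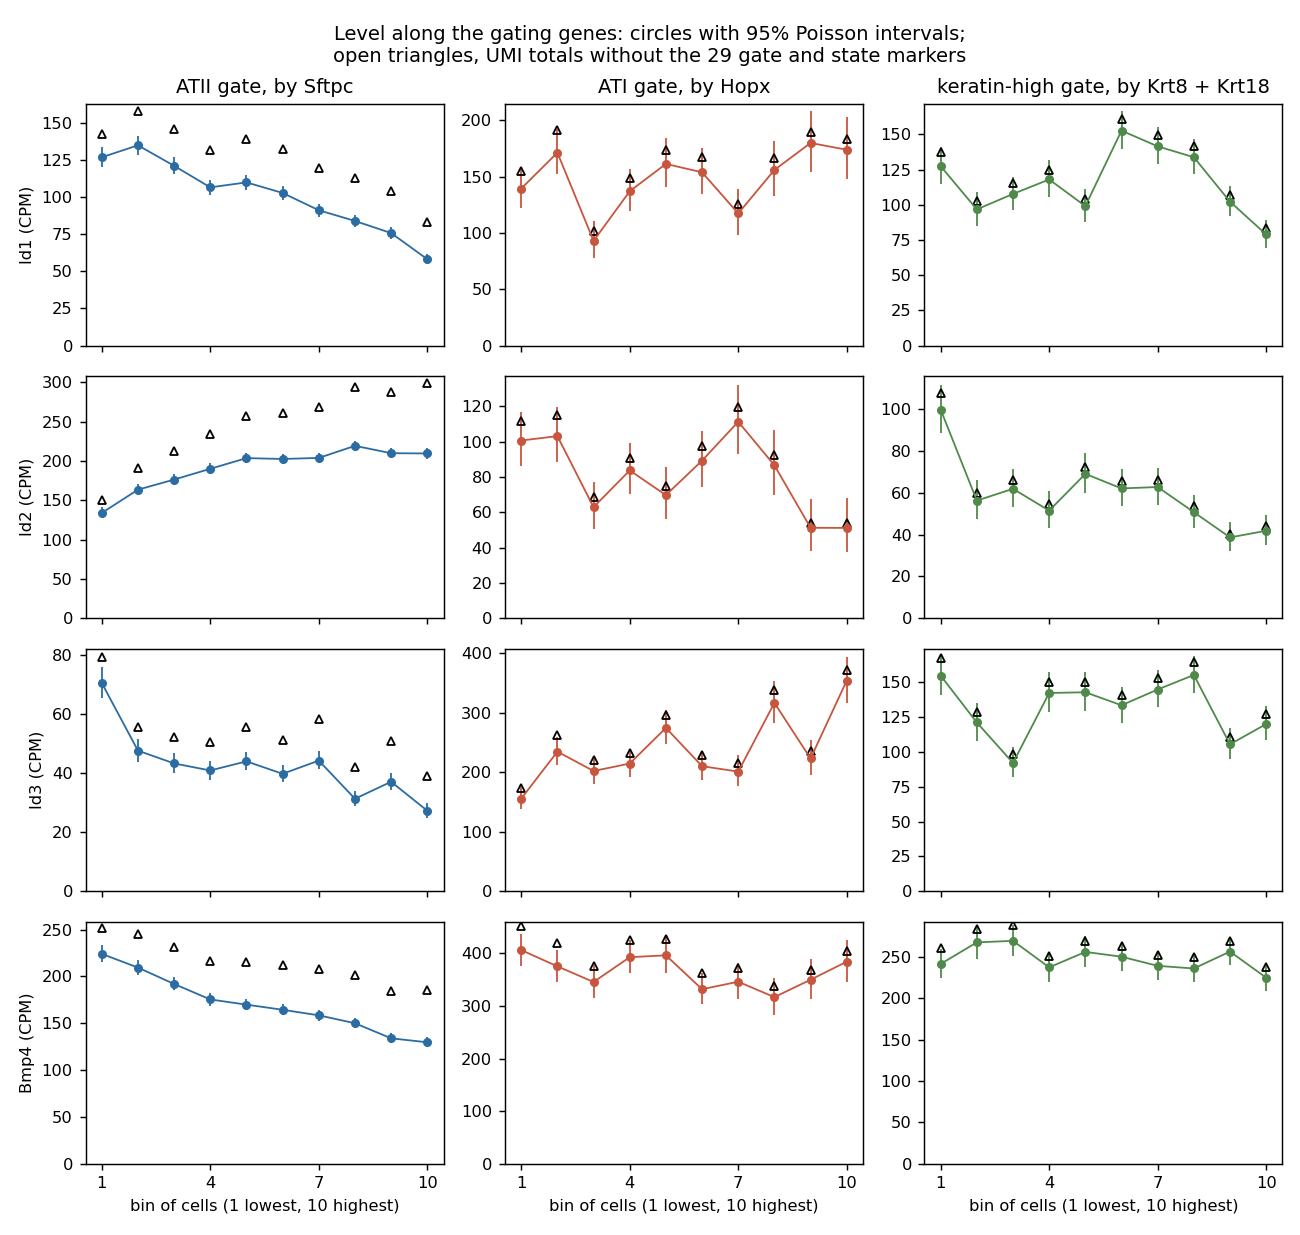
Level in CPM of Id1, Id2, Id3 and Bmp4 (rows) over 10 bins of cells ordered by Sftpc in the ATII gate, Hopx in the ATI gate and Krt8 plus Krt18 in the keratin-high gate (columns), with 95% Poisson intervals. Open triangles use UMI totals without the 29 gate and state markers. In the ATII gate Id1 and Bmp4 go down as Id2 goes up, and Id3 is highest in the first bin.

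Over the 30 bins, log2 levels of Id3 and Bmp4 had a Pearson correlation of 0.92, Id3 and Bmpr2 of 0.86, Id1 and Id3 of 0.69, and Id2 and Id3 of -0.76. The bins share libraries and gating genes, so these values are descriptions. The genes most like Id3 over the bins, among 5493 genes with at least 20 CPM, were Pgrmc1 (0.98), Sec14l3 (0.98) and Dpysl2 (0.98). Those most like Id2 were Lyz2, the lysozyme gene abundant in ATII cells (0.96), Scd1 (0.96), a fatty acid desaturase gene, and Cat (0.96), the catalase gene. Id1 had less close partners, Mbtps1 (0.85), Kansl1 (0.82) and Gpbp1l1 (0.81). The partners of the nearly undetected Id4, Taf3 (0.60), Siah1a (0.51) and Pcyox1 (0.51), rest on few UMIs.

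In single thinned cells Id1 and Id3 were found together in 5.36% of ATII-gated cells, where the product of their shares was 3.34%, a ratio of 1.60. The ratio was 1.44 in the ATI gate and 1.46 in the keratin-high gate. For Id2 with Id3 it was 1.18, 1.37 and 1.41, and for Id1 with Id2 it was 1.06, 1.25 and 1.63. The more cells hold a gene the lower the highest value such a ratio can take, so the values are not compared between pairs or gates, and the pairs with Bmp4 are given as shares. Id1 was found in 29.6% of cells with Bmp4 and 28.6% of cells without it in the ATII gate, 37.7% and 28.5% in the ATI gate, and 31.0% and 28.0% in the keratin-high gate. Id3 was found in 12.2% and 10.7%, 42.3% and 44.7%, and 31.7% and 33.3% of these cells. These are sparse counts over cells that share libraries and were not tested.

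Of the wider BMP pathway, 62 symbols were listed and 61 had a row. In the ATI gate over the ATII gate 34 passed the limit, of which 5 were called higher and 7 lower, beside 11.8% of all genes higher and 6.06% lower (17.8% in all), with a median log2 ratio of 0.19 beside 0.37 over all genes. The largest difference was that of Nbl1, which encodes a secreted BMP antagonist, at 3.37 CPM in the ATII gate, 102 CPM in the ATI gate and 102 CPM in the keratin-high gate, 30.1-fold (27.2 to 33.3) and 30.2-fold (27.6 to 33.1) above the ATII gate. Bambi, which encodes a pseudoreceptor that dampens BMP and TGF-beta signals, was at 113, 16.0 and 27.5 CPM, 7.06-fold lower in the ATI gate (6.16 to 8.11) and 4.10-fold lower in the keratin-high gate (3.83 to 4.40). The antagonist genes thus differed in both directions. Fstl3, a follistatin-like gene, was 5.82-fold higher in the ATI gate and 4.26-fold higher in the keratin-high gate, while Fstl1 was 4.34-fold and 2.73-fold lower. Htra1, a secreted protease gene, was at 11.2, 57.2 and 20.5 CPM.

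Ligand genes other than Bmp4 that were called between the ATI and ATII gates were all lower in the ATI gate. Gdf15, a stress-induced member of the family, was at 71.2 CPM in the ATII gate, 19.1 CPM in the ATI gate and 66.5 CPM in the keratin-high gate. Bmp2 was at 15.2, 6.29 and 24.4 CPM, Bmp3 at 5.75, 1.65 and 21.2 CPM, and Gdf5 at 7.51, 2.10 and 0.554 CPM. Keratin-high cells thus had the most Bmp2 and Bmp3 and the least Gdf5. Bmp5 was 2.45-fold lower in the keratin-high than in the ATII gate (2.15 to 2.81). Bmp1, which encodes a metalloprotease rather than a BMP-type ligand, was at 125, 97.0 and 104 CPM.

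Among receptor genes Acvr2b alone was called between the ATI and ATII gates, at 15.4 against 7.45 CPM, 2.07-fold higher and 1.61-fold relative to the median gene. Rgma, a co-receptor gene, was 3.03-fold lower in the keratin-high gate than in the ATI gate. Acvrl1 and Eng, receptor genes of endothelium, stood at 434 and 357 CPM in endothelial-marked cells and under 1 CPM in each gate. None of the 6 SMAD genes that passed the limit was called between the ATI and ATII gates, and their median log2 ratio was 0.29. The other, Smad9, stayed just under the limit, at 0.210 CPM (34 UMIs) in the ATII gate, 4.57 CPM (61 UMIs) in the ATI gate and 0.489 CPM (15 UMIs) in the keratin-high gate, 21.7-fold higher in the ATI than in the ATII gate (14.1 to 34.1). Smad7, the other inhibitory SMAD gene, was at 57.3, 83.6 and 88.0 CPM and Smad4, the shared partner, at 36.0, 56.4 and 56.1 CPM.

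Other target genes were mixed. Atoh8 was 4.11-fold higher in the ATI than in the ATII gate (3.61 to 4.67), at 5.80, 23.8 and 10.1 CPM over the ATII, ATI and keratin-high gates, the order of Id3. Sox9, a transcription factor gene of distal lung progenitors, was at 14.2, 2.92 and 18.8 CPM, 4.87-fold lower in the ATI gate (3.55 to 6.87). Runx1 was at 117, 144 and 136 CPM. None of the 3 E protein genes was called in any comparison, with Tcf12 at 40.7, 52.8 and 50.2 CPM. The regulators Tob1, Skil, Ski and Smurf1, which passed 50 CPM in a gate, were not called.

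In the keratin-high gate over the ATII gate 3 of 34 listed genes were called higher and 4 lower, beside 14.7% and 5.51% of all genes (20.2% in all), with a median log2 ratio of 0.32 beside 0.37 over all genes. Over the ATI gate 4 of 33 were higher, namely Bmp2, Bmp3, Gdf15 and Sox9, and 3 lower, namely Rgma, Htra1 and Atoh8, beside 6.99% and 4.60% of all genes (11.6% in all).

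**Figure D4:**
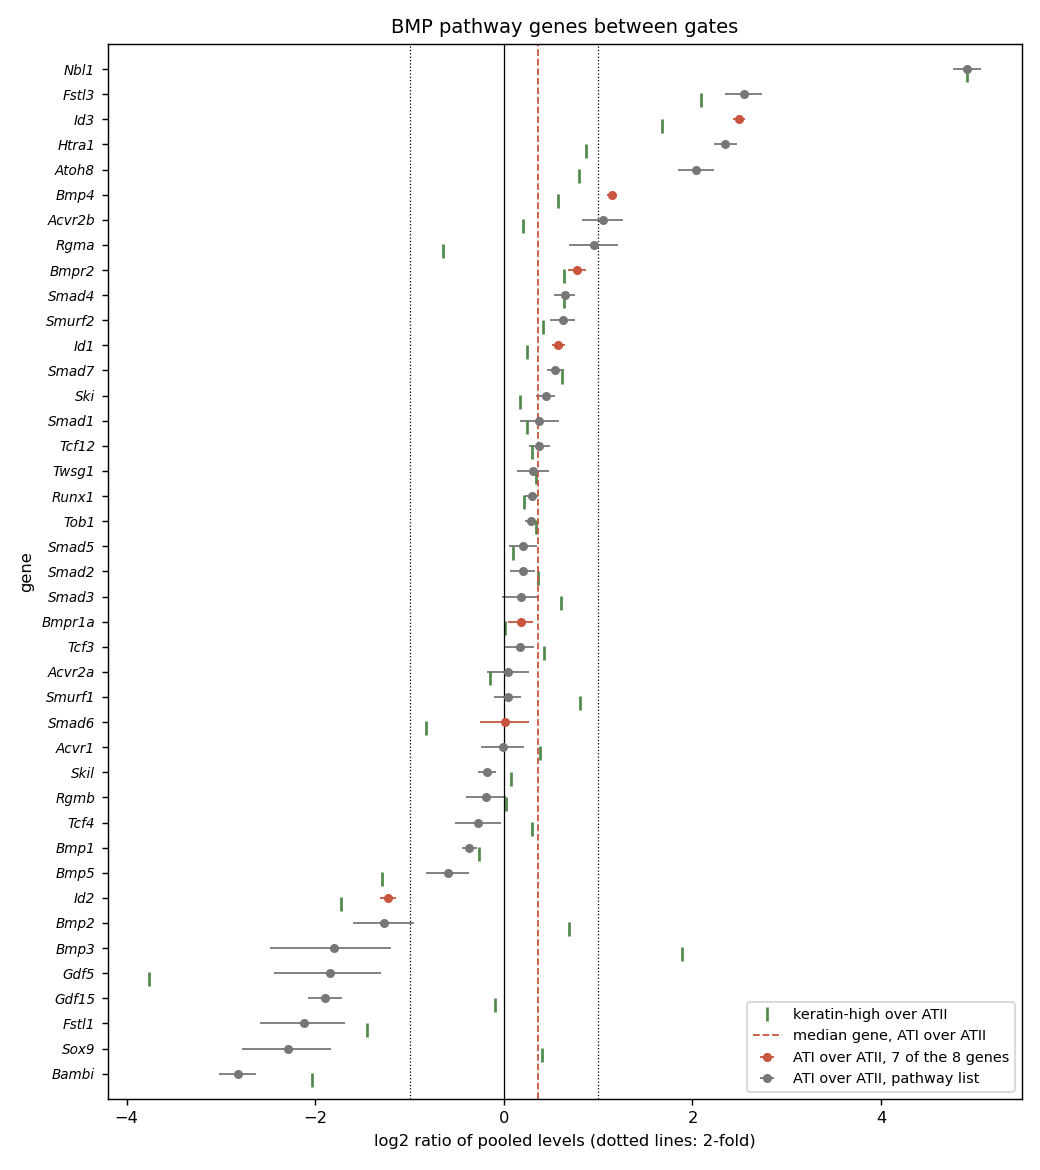
Log2 ratio of the ATI gate over the ATII gate for each pathway gene with at least 5 CPM (circles with 95% intervals, 7 of the 8 genes in red, Id4 being under the limit, and the listed genes in grey) and of the keratin-high gate over the ATII gate (green ticks), with the median gene at 0.37 (dashed) and the 2-fold limits (dotted). Nbl1 is at the top and Bambi at the bottom for the ATI gate.

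The second comparison set cells with the trap transcript against cells with Stk11 transcript. A cell was GFP-positive with at least 1 GFP UMI and no Stk11 UMI (3360 cells), and Stk11-positive in the reverse case (3367 cells). Both were found in 29 cells and neither in 5427, with a median depth of 12780 UMIs in the last. Single UMIs decide these classes, and they are not the Restored and NonRestored groups of mice. After thinning, a GFP UMI was found in 9.11% of ATII-gated, 12.7% of ATI-gated and 21.2% of keratin-high cells, against a background of 1.57% of fibroblast-marked cells (median depths 21660, 11796.5, 23490 and 15285.5 UMIs). A Stk11 UMI was found in 11.7%, 14.6% and 5.32% of the thinned cells of these gates. It was found in 11.5% of fibroblast-marked and 9.23% of myeloid-marked cells, so the keratin-high share was under both.

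In the ATII gate, Id3 and Id2 were lower and Id1 was higher in GFP-positive cells, none of them by 2-fold. Of 7 members that passed the limit 0 were called, beside 3.49% of 9424 genes (2.84% higher, 0.647% lower), and the median gene was 1.13-fold higher in the 1742 GFP-positive than in the 2353 Stk11-positive cells. Id3 was at 31.9 against 51.6 CPM, 1.62-fold lower (1.52 to 1.72), and Id2 at 173 against 218 CPM, 1.26-fold lower (1.23 to 1.30). Neither gene stood above its level in myeloid-marked cells, 55.1 CPM for Id3 and 219 CPM for Id2, so these folds compare counted UMIs only. Id1 was at 122 against 86.3 CPM, 1.42-fold higher (1.37 to 1.47), or 1.25-fold relative to the median gene. The thinned shares ran the same way, 9.25% against 13.9% of cells for Id3, both under the share in myeloid-marked cells, 46.3% against 57.4% for Id2 and 38.1% against 26.1% for Id1. Bmp4, at 180 and 158 CPM, was 1.14-fold higher but 1.01-fold relative to the median gene. Sftpc was at 135749 CPM in GFP-positive and 170480 CPM in Stk11-positive cells of this gate, and its part in these differences was not tested. With GFP and Stk11 called after thinning, the log2 ratio of Id3 was -0.30, beside -0.69.

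In the ATI gate 242 GFP-positive cells were set against 266 Stk11-positive cells, and 0 of 7 members were called, beside 4.02% of 9713 genes (2.37% higher, 1.65% lower). Id2 was at 63.5 against 104 CPM, 1.63-fold lower (1.40 to 1.90), with Sftpc at 39773 against 62157 CPM and Hopx at 2906 against 3789 CPM. The part of these in the difference was not tested. Id1 (153 and 148 CPM) was not separated at this depth, with a ratio of 1.03 (0.928 to 1.15), and Id3 (224 and 202 CPM) had a ratio of 1.11 (1.01 to 1.22), or 1.02 relative to the median gene. Between thinned cells their log2 ratios were 0.53 and 0.49, beside 0.05 and 0.15, but the thinned share of cells with Id3 was 41.2% in GFP-positive and 43.6% in Stk11-positive cells. Bmpr1a, at 29.3 against 41.2 CPM, was 1.41-fold lower on 128 and 182 UMIs (1.11 to 1.78). The log2 ratio of Id2, -0.71, became -1.04 with calls made after thinning, past the 2-fold limit, and -0.37 as the mean of per-cell CPM.

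In the keratin-high gate 642 cells were GFP-positive and 165 Stk11-positive, and again 0 of 7 members were called, beside 5.99% of 9855 genes (3.01% higher, 2.97% lower). Here Id1, Id2, Id3, Bmp4 and Bmpr2 were lower in GFP-positive cells. Id3 was at 112 against 191 CPM, 1.72-fold lower (1.59 to 1.86), Id1 at 112 against 163 CPM, 1.45-fold lower (1.34 to 1.58), and Bmp4 at 224 against 304 CPM, 1.36-fold lower (1.28 to 1.44). Id2 was at 57.6 against 78.8 CPM, 1.37-fold lower (1.21 to 1.54). Hopx was at 356 against 516 CPM and Sftpc at 19616 against 14405 CPM between these classes, and their part was not tested. The thinned share of cells with Id1 was nearly equal, 31.9% and 32.5%, and between thinned cells the log2 ratio of Id1 was -0.14, beside -0.54. Smad6 had 129 and 22 UMIs, too few to separate the classes, with a ratio of 1.37 (0.867 to 2.26).

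Id2 was thus lower in GFP-positive cells in all 3 gates, under all alternative settings tried. Id1 was higher in the ATII gate and lower in the keratin-high gate, and that difference between gates was not tested. Over all filtered cells, where 0 of 7 members were called beside 5.31% of 9762 genes (3.21% higher, 2.10% lower), Id2 was at 126 against 198 CPM, 1.56-fold lower (1.53 to 1.60), where Sftpc was at 90213 against 144403 CPM. The keratin-high gate held 642 of the 3360 GFP-positive and 165 of the 3367 Stk11-positive cells, so the classes differed in their mix of gates. Id3 over all cells was at 73.5 against 102 CPM, but its log2 ratio went from -0.47 to -0.06 once the cells marked as other types were left out. Of the listed pathway genes 3 of 31 were called in the ATII gate, beside 3.49% of all genes there (2.84% higher, 0.647% lower), with Fstl1 (27.0 against 3.80 CPM) and Gdf5 (11.5 against 3.70 CPM) higher and Bmp3 (1.83 against 8.27 CPM) lower. In the ATI gate 4 of 33 were called, beside 4.02% of all genes, with Fstl1 (30 against 6 UMIs) higher and Bmp2 (14 against 38 UMIs), Gdf15 (51 against 141 UMIs) and Sox9 (7 against 23 UMIs) lower. In the keratin-high gate 4 of 33 were called, beside 5.99% of all genes, with Bmp5 (8.46 against 2.58 CPM) and Fstl1 (5.69 against 0.862 CPM) higher and Bmp2 (16.6 against 59.2 CPM) and Fst (2.67 against 6.03 CPM), the follistatin gene, lower. Over all filtered cells 2 of 35 were called, Gdf5 higher (7.05 against 3.23 CPM) and Fst lower (0.978 against 9.51 CPM), beside 5.31% of all genes. Fst had 2013 UMIs (480 CPM) in fibroblast-marked cells and 61, 9 and 100 UMIs in the ATII, ATI and keratin-high gates, and the part of fibroblast-marked cells in that call was not tested.

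**Figure D5:**
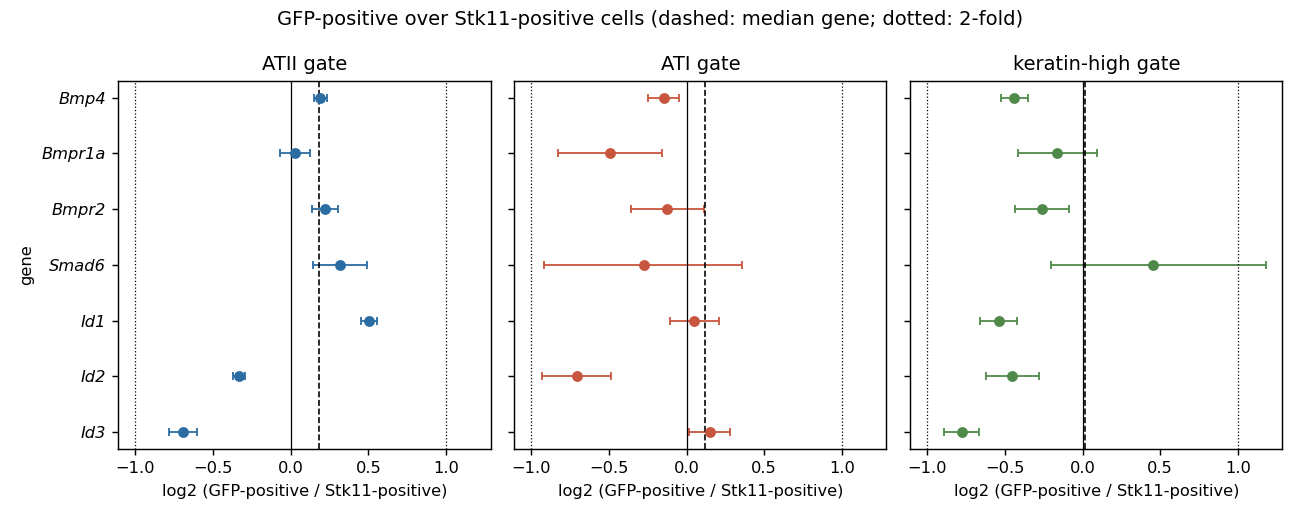
Log2 ratio of the pooled level in GFP-positive over Stk11-positive cells (x axis) for 7 genes (rows) in the ATII, ATI and keratin-high gates, with 95% counting intervals, the median gene (dashed) and the 2-fold limits (dotted). Id2 lies left of 0 in all 3 panels, and Id1 lies right of 0 in the ATII panel (0.50) and left of it in the keratin-high panel (-0.54).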

How the data were processed

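Libraries of sorted tdTomato-positive neoplastic cells from 6 mice were made with 10x Chromium 3′ v3 chemistry. The deposited matrix holds UMI counts per gene and cell, which the authors obtained with Cell Ranger 3.0.2 on mm10. The annotation release is not given in the sources used here. The matrix pools the libraries, and cell barcodes were not analysed here, so shared barcodes were not counted. The authors' minimum of 500 features was used, with a limit of 20% mitochondrial UMIs, which removed 1753 cells. No doublet caller was run, and the 5% deepest cells were left out in an alternative. UMIs were summed per gate and divided by the total (CPM), with exact Poisson, conditional binomial and Clopper-Pearson intervals at 95% (Python 3.11.15, scipy 1.17.1). These cover counting error only, and the limit given beside a share of 0 is 3 counts of the total. For shares, 11084 cells were thinned to 5000 UMIs and 1099 shallower cells left out. Cells counted as another type with at least 3 markers of it and 10 UMIs per 10000. Named genes were the 8 members, listed pathway genes past 2-fold or at 50 CPM in a gate, and the 3 genes most correlated with each Id gene. The members and lists were chosen with earlier results of these data known. Gene positions are from GENCODE M21 and promoters from RefSeq. Alternatives covered scaling, filters, limits, depth and cell classes.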

Additional observations from a re-analysis of the deposited data

How the results depend on the processing

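No paired analysis was possible because cells were not assigned to mice, and for the same reason no replicate could be left out. Of 148 alternative counts of called genes 130 stayed within 1.5 times the count reported, 3 were smaller and 15 larger. Shares over all genes are given only for the main setting of 2-fold and 5 CPM, and a looser limit calls more genes of any kind. The counts below therefore show dependence on the setting and are not read as results about the members or the list. With a limit of 1.5-fold in place of 2-fold, the members called were 4 in the keratin-high over the ATII gate, 2 in the keratin-high over the ATI gate, and 1 each for GFP-positive over Stk11-positive cells in the ATII gate, the ATI gate, the keratin-high gate and all filtered cells. Listed pathway genes were then 15 in the keratin-high over the ATII gate and 12 over the ATI gate. With a limit of 1 CPM, 1 member was called for GFP-positive over Stk11-positive cells in the ATI gate and 1 in all filtered cells, and listed genes were 11 in the keratin-high over the ATI gate and 5 for GFP-positive over Stk11-positive cells in the ATII gate. With a limit of 20 CPM the listed genes called were 6 in the ATI over the ATII gate, 3 in the keratin-high over the ATII gate and 1 for GFP-positive over Stk11-positive ATII-gated cells. Calling GFP and Stk11 after thinning gave 1 member in the ATI gate and 1 in the keratin-high gate, and a keratin limit of 100 gave 1 in the keratin-high over the ATI gate, Smad6. Relative to the median gene, and with totals without the 29 markers, Bmp4 dropped out of the ATI over ATII calls (2 in place of 3) and Smad6 joined those of the keratin-high gate (3 in place of 2). Of 777 single values 149 moved beyond the counting interval. Across the alternatives the log2 ratio of ATI over ATII lay between 2.13 and 2.78 for Id3 and between -1.60 and -1.21 for Id2, and that of Bmp4 between 0.77 and 1.20. Restricting to cells with a TdTomato UMI, and leaving the 3 E proteins off the list, were chosen after seeing the data. Depth limits Id4 and, among Stk11-positive keratin-high cells, Smad6.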

Other observations

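Id1 was higher in cycling cells. A cell was taken as cycling with at least 3 UMIs over 10 proliferation genes after thinning to 5000 UMIs, which marked 172 of the cells without markers of other types (1.61%). Their median depth before thinning was 36302 UMIs, against 20776.5 in the 10532 others. Id1 was at 229 CPM (95% Poisson interval 217 to 241) in cycling cells and 104 CPM (102 to 105) in the rest, while Bmp4 was at 216 and 206 CPM and Id2 at 168 and 160 CPM. Within the ATII gate the 95 cycling cells had Id1 at 255 CPM (239 to 272), against 94.7 CPM (93.2 to 96.3), and Id3 at 64.5 CPM against 40.4 CPM. In the keratin-high gate 26 cycling cells had Id1 at 158 CPM (133 to 186) against 115 CPM (111 to 119), and Id3 was lower, at 90.8 against 133 CPM, as was Bmpr2, at 39.4 against 66.2 CPM. No ATI-gated cell was cycling, 0 of 841 cells, where 3 counts would be a share of 0.357%. These values carry no replicate check.

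Among the 1127 ungated cells with high Sftpc and Hopx between the limits of the ATII and ATI gates, Id1 (110 CPM), Id2 (155 CPM), Id3 (92.2 CPM), Bmp4 (284 CPM) and Bmpr2 (51.3 CPM) lay between the levels of those gates. Bmpr1a, at 32.7 CPM (30.5 to 35.1), Smad6, at 8.88 CPM (7.74 to 10.1), and Id4, at 0.163 CPM on 4 UMIs, lay below both, each with an interval that reached the ATII level.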
